A study of Mus musculus with 200 samples.

Results

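The genes that build and run transport inside the primary cilium were read from 3SEQ data (3′-biased RNA sequencing) of single mouse embryos. They were chosen by symbol, and 39 of the 22033 genes in the tables are on the list. Each embryo is a whole mouse embryo of embryonic day 11.5, freed of placenta and membranes, with no treatment and no engineered allele. The F1 embryos came from reciprocal crosses of the inbred strains C57BL6/J (B6) and Castaneus (Cast, the strain CAST/EiJ), 8 from B6 mothers (B6 × Cast) and 8 from Cast mothers (Cast × B6), in 2 litters per cross. The N2 embryos came from backcrosses to B6. In 89 of them, from 17 litters, the mother was B6 (B6 × F1), and in 65, from 12 litters, it was the F1 animal (F1 × B6). At each autosomal gene an N2 embryo is either B6/B6 or heterozygous B6/Cast. Mitochondria were of B6 origin in the embryos of either backcross. Embryos of a litter share a mother and are not independent of each other.

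The primary cilium is a single antenna-like projection of the cell surface built on a microtubule core. Its proteins are carried along the core in trains of intraflagellar transport (IFT) particles. The IFT-B complex rides with kinesin-2 toward the tip, the IFT-A complex is needed for the return with cytoplasmic dynein 2, and the BBSome, an octameric coat complex lost in Bardet-Biedl syndrome, links membrane proteins to the trains. The transition zone at the base gates entry. In the embryo the cilium is known above all as the place where Hedgehog signals are processed, and loss of IFT genes disturbs the patterning of the neural tube and limbs.

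Promoter sequence was taken from RefSeq (build GRCm38.p6, 250 bases before to 50 after the first transcribed base), which held windows for 33 of the 39 genes, with Rabl5 listed as Ift22. Ciliary genes are known for the X-box, the binding site of RFX transcription factors, so the core letters GTTGCC were searched on both strands. They occurred in 14 of the 33 windows (42.4%), against 14.1% of the 27025 windows of all genes. The paired form GTTNCC followed within 0 to 3 bases by GGNAAC, whose matches can hold the core letters as well, occurred in 3 windows (9.09%), against 0.936% of all. The paired matches of Bbs7 and Mks1 are printed because this form is the rarer, and those of Kif3a, Ift27 and Ift140 because these genes were lower in heterozygous embryos, a choice made after their values were seen. Bbs1, which was higher in heterozygous embryos, also held a match, and Rabl5, the gene lowered most, did not. The relation of matches to level was not tested. Letters run 5′ to 3′ on the strand of the gene in lower case, with the match in capitals. The match of Ift140 is on the opposite strand and so reads GGCAAC. A match is a run of letters in this window, and binding was not measured.
Bbs7 (chr3:36613491-36613520, minus strand, match beginning 121 bases before the start): atgcgccccgGTTGCCTTGGAAACcggcca
Mks1 (chr11:87853181-87853210, plus strand, 24 bases before): cagcgtctccGTTGCCAGGGGAACgaggca
Kif3a (chr11:53567261-53567290, plus strand, 98 bases before): ccccgcaggcGTTGCCccagtctagcgtcc
Ift27 (chr15:78174082-78174111, minus strand, 9 bases before): ggagaaggcgggttgatgatgGTTGCCagg
Ift140 (chr17:25015967-25015996, plus strand, 109 bases before): gtgttgtgacGGCAACctcgcgcccttgcg

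Depth differed greatly between the generations. F1 embryos had 15703888 to 38234229 reads on genes, in 2 sequencing runs per embryo. N2 embryos had 245220 to 5370322, with a median of 2297773, and 13 of them had fewer than 1000000, 11 of these with B6 mothers. Reads were divided by the embryo's total to give reads per 1000000 (RPM). A level of 5 RPM, the minimum for tests of level in N2 embryos, is about 11.5 reads at the median N2 depth. N2 embryos were sequenced in 14 lanes, of which 8 held embryos of B6 mothers, 5 those of F1 mothers and 1 both. Somites, the paired blocks of trunk tissue that mark developmental age, were counted in 147 N2 embryos and ranged from 42 to 57. Among cell type markers, neuronal (Tubb3), erythroid (Hbb-y), hepatic (Afp) and muscle (Myog) transcripts were read in all embryos. The trophoblast markers Prl3d1 and Prl2c2 were at 0 in all, and Tpbpa reached 3.99 RPM. Since embryos were sequenced whole, fewer ciliated cells and less RNA per cell cannot be told apart in any level given here.

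All 5 functional groups of the list were represented, and 30 of the 39 genes had a mean of at least 5 RPM over the N2 embryos. Levels are of 3′ ends, which are not divided by transcript length, so genes are not ranked against each other by RPM. Of the 14 IFT-B genes, 11 reached the minimum. Ift20, which shuttles between the Golgi and the cilium, had 486 ± 192 RPM (SD, n = 89) in embryos of B6 mothers and 519 ± 186 (n = 65) in those of F1 mothers, on a scale of 88.5 to 1042 over single embryos. Ift46, Ift27 (a small GTPase of IFT-B) and Rabl5 (also Ift22, a related GTPase) had means of 226, 196 and 85.3 RPM. Ift80, Ttc30b and Ift88, a core subunit needed to build a cilium, had means of 3.45, 0.525 and 4.75 RPM, and Ttc30b had 0 reads in 100 of the 154 embryos.

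Of the 5 IFT-A genes, 4 reached the minimum, with means from 10.4 (Wdr19) to 52.1 RPM (Ift140), and Ttc21b had 4.59 RPM. The 5 motor genes all passed, from Dync2h1, the dynein 2 heavy chain, at 9.49 RPM to Kif3a, a motor subunit of kinesin-2, at 132 RPM. Among the 10 genes of the BBSome and its partners, 7 passed, with means from 5.05 RPM (Arl6, the GTPase that recruits the BBSome to membranes) to 19.8 RPM (Bbs4). Bbs5, Ttc8 and Bbs10 did not. Among the 5 genes of the transition zone and ciliary membrane, Mks1, Arl13b and Cc2d2a passed, and Cep290 and Tmem67 had 3.74 and 1.09 RPM. Foxj1, which drives motile cilia, was read at 4.82 to 57.9 RPM in N2 embryos, with a median of 26.4. The motile cilia markers Dnaic1 and Ccdc39 were lower, at 0 to 10.3 (median 1.43) and 0 to 13.8 RPM (median 1.25). The part of motile cilia in the ciliary levels was not tested. The exons of 7 listed genes overlap a gene on the other strand and those of Cluap1 and Bbs12 a gene on the same strand (Nat15 and Fgf2), and reads may have been shared there.

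The first comparison asked whether the Cast and the B6 copy of each gene contributed equally within an embryo. SNPs in reads give votes for either allele, and the B6 allele fraction (BAF) is the B6 votes divided by all votes, 0.5 when both copies contribute alike. Of the 39 genes, 30 had the minimum of 20 votes in each cross. Ift20 and Ttc30b had no vote, and Bbs5, Bbs10, Bbs12, Ttc8, Arl6, Ttc21b and Cep290 too few. Unequal alleles were called in 5 of 30 genes, 3 with more B6 and 2 with more Cast, against 18.9% of all 9084 genes tested. The call needed a Bonferroni-adjusted p under 0.01 in a paired test over the F1 and heterozygous N2 embryos and a pooled BAF outside 0.45 to 0.55. That Rabl5 and Ift27 are biased was known when the list was drawn up and is a description here.

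Rabl5 (chromosome 5, 137384020 to 137389114, plus strand, mm9) had the largest imbalance of the 30. Its BAF was 0.704 ± 0.0037 (SE of the pooled ratio, n = 16) in F1 embryos and 0.714 ± 0.0046 (n = 75) in heterozygous N2 embryos. Single F1 embryos lay between 0.682 and 0.731 with a median of 0.705. The B6 allele gave more votes in 16 of 16 F1 and in 75 of 75 N2 embryos (Bonferroni-adjusted p = 1.22e-42). The fractions of both F1 crosses overlapped, at 0.682 to 0.718 in Cast × B6 and 0.689 to 0.731 in B6 × Cast. Ift27 (chromosome 15, 77989895 to 78004538, minus strand) had a small B6 excess, with a BAF of 0.553 ± 0.0068 in F1 and 0.549 ± 0.0056 (n = 72) in N2 embryos. It was above 0.5 in 16 of 16 F1 embryos, from 0.517 to 0.630, and in 60 of 72 N2 embryos (adjusted p = 4.30e-06).

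The other 3 calls rested on fewer votes. Bbs9, a scaffold subunit of the BBSome (chromosome 9, 22280159 to 22692724), had a BAF of 0.380 ± 0.012 in F1 and 0.355 ± 0.017 (n = 66) in N2 embryos. Cast votes were the more numerous in 16 of 16 F1 and in 53 of 66 N2 embryos (adjusted p = 8.06e-09). Bbs4, a BBSome subunit (chromosome 9, 59169773 to 59201315), had 0.366 ± 0.034 from 500 F1 votes and 0.393 ± 0.019 (n = 87) from 679 N2 votes, with more Cast votes in 12 of 16 and 59 of 87 embryos (adjusted p = 3.91e-04). Its single F1 embryos spread from 0.146 to 0.595, on both sides of equality. Arl13b, a GTPase of the ciliary membrane (chromosome 16, 62793511 to 62846866), had a BAF of 0.524 ± 0.013 in F1 and 0.620 ± 0.018 (n = 79) in N2 embryos (adjusted p = 6.65e-04). Tested in F1 embryos alone, neither Bbs4 nor Arl13b passed (adjusted p = 1 for both). In heterozygous N2 embryos alone Ift27 was not called, since its BAF of 0.549 lies inside the window (adjusted p = 3.09e-04). Kif3a had an adjusted p of 2.76e-07, but its pooled BAF of 0.543 lies inside the window.

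**Figure D1:**
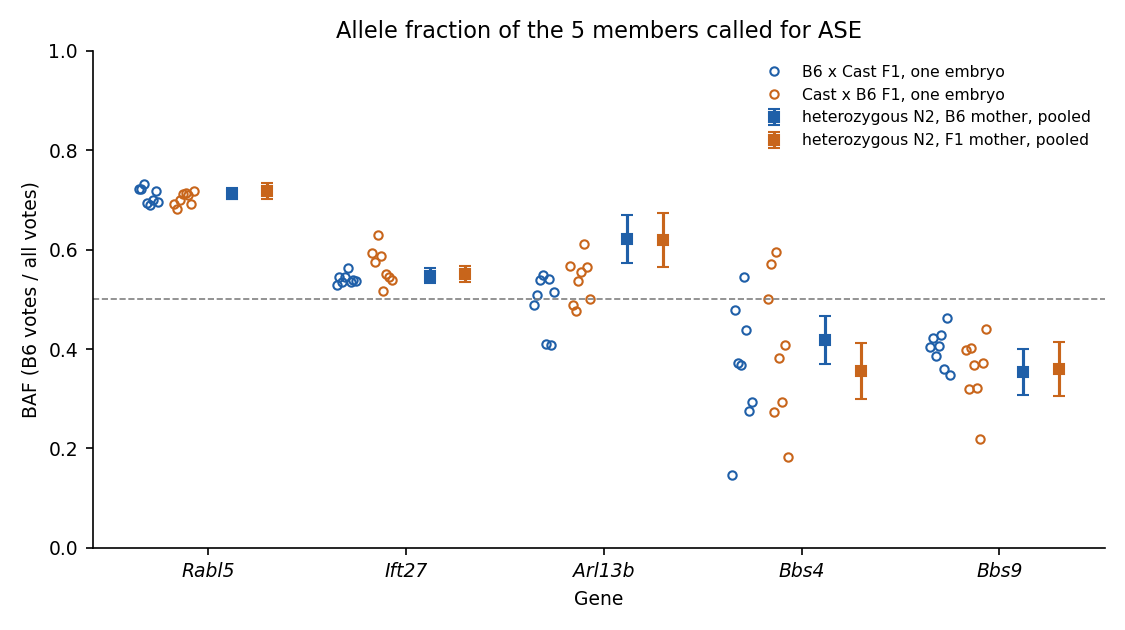
B6 allele fraction (vertical axis, 0 to 1) of the 5 genes called for unequal alleles. Open circles are single F1 embryos of the crosses B6 × Cast (blue) and Cast × B6 (orange), and squares are pooled heterozygous N2 embryos of either mother with 95% intervals. Rabl5 lies near 0.7 in all groups, the N2 fractions of Arl13b (0.621 and 0.619) lie above the median of its F1 embryos (0.526), and the circles of Bbs4 straddle 0.5.

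A change of BAF between the generations was tested with a quasi-binomial model, and 4 of the 30 genes differed at a q under 0.05, against 20.9% of all genes. Arl13b was higher in N2 by 0.096 (q = 6.10e-04). Wdr19 (Ift144), an IFT-A subunit, rose from 0.409 ± 0.017 to 0.489 ± 0.019 (q = 0.0106). Ift46 went from 0.495 ± 0.0037 to 0.519 ± 0.0053 (q = 0.00193), and Ift172 from 0.522 ± 0.012 to 0.453 ± 0.015 (q = 0.00449). Rabl5 and Ift27 differed by 0.010 (q = 0.217) and -0.0042 (q = 0.777). The reads of F1 embryos were shortened to a common length and those of N2 embryos were not, and the part of this in the 4 differences was not tested.

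An allele that depends on the parent it came from would favour B6 in 1 cross and Cast in the other. Of 35 genes with 20 votes per F1 cross, 0 met this test (binomial tests in both crosses), against 0.405% of 11598 genes. With an exact Mann-Whitney test on the BAF of single embryos, 0 of 32 passed after adjustment and 2 had an unadjusted p under 0.05. They were Kif3a, with a BAF of 0.563 ± 0.0055 for B6 mothers and 0.529 ± 0.0062 for Cast mothers (exact p = 0.00186, q = 0.115), and Ttc8, a BBSome subunit, with 0.472 and 0.327 (exact p = 0.0379, q = 0.409). In both crosses the B6 allele of Kif3a was the higher in 8 of 8 embryos.

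The second comparison set heterozygous against B6/B6 N2 embryos at each gene itself, which asks whether carrying a Cast copy goes with another total level. Levels were compared by a rank-sum test on log2(RPM + 1) after lane, somite number and 15 principal components had been removed. Of the 30 genes at 5 RPM, 8 differed at a q under 0.01, against 29.3% of 9733 autosomal genes. In 5 of them the heterozygous embryos were lower and in 3 higher. The size of a difference depended on how many components were removed (for Rabl5 -0.42 with 15 and -0.23 with 30), so each is also given with lane and somite number alone removed.

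Rabl5 again differed most. B6/B6 embryos had 44.4 to 165 RPM with a median of 102, and heterozygous embryos 31.2 to 118 with a median of 64.9. The groups overlapped, and the heterozygous mean was 67.8% of the other, 68.6 ± 17.1 (n = 75) against 101 ± 25.1 RPM (n = 79). The difference was -0.42 ± 0.029 on the log2 scale after all corrections (q = 4.09e-20) and -0.51 ± 0.045 with lane and somite number alone. Ift27 was lower by -0.15 ± 0.023 (q = 2.06e-08) and -0.18 ± 0.034, with medians of 175 RPM in 72 heterozygous and 201 RPM in 82 B6/B6 embryos. Kif3a was lower by -0.28 ± 0.029 (q = 1.24e-13) and -0.31 ± 0.058, with medians of 110 and 146 RPM. Ift140 was lower by -0.24 ± 0.032 (q = 1.57e-10) and -0.30 ± 0.068, with medians of 47.8 and 56.9 RPM. Ift20 was lower by -0.09 ± 0.023 (q = 5.76e-04), but with lane and somite number alone removed it differed by -0.05 ± 0.065 and was not called (q = 0.517).

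The 3 genes that were higher in heterozygous embryos were Bbs1, Bbs4 and Ift57. Bbs1, a BBSome subunit that binds Arl6, had medians of 8.53 RPM in 79 heterozygous and 6.06 RPM in 75 B6/B6 embryos, a difference of 0.23 ± 0.050 (q = 8.39e-05) and 0.33 ± 0.074. Ift57, a peripheral IFT-B subunit, had medians of 10.2 and 8.07 RPM, a difference of 0.27 ± 0.059 (q = 1.55e-04) and 0.33 ± 0.088. Bbs4 was higher by 0.21 ± 0.046 (q = 2.00e-04), and with lane and somite number alone by 0.18 ± 0.082, which was not called (q = 0.0129). The median N2 embryo had 15 reads of Bbs1, 19 of Ift57 and 40 of Bbs4, and the ranges of both genotypes overlapped for all 3 genes.

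If each copy keeps its output whatever the other copy is, the BAF of F1 embryos fixes the level of heterozygous embryos relative to B6/B6 as 0.5 divided by the BAF. The observed values are differences of log2(RPM + 1), in which the added 1 shrinks a difference between low levels. The expected values are plain log2 ratios, so both are not on quite the same scale for genes of few RPM. For Rabl5 this gives -0.49 on the log2 scale (95% interval -0.51 to -0.48), beside the -0.51 observed with lane and somite number removed. For Ift27 it gives -0.15 (-0.18 to -0.11) beside -0.18. Kif3a had a larger observed difference, -0.31 (-0.42 to -0.20), than its BAF gives, -0.13 (-0.16 to -0.10). Bbs1 had a BAF of 0.501, which gives -0.0019 (-0.11 to 0.11), beside an observed 0.33 (0.18 to 0.47). Ift57 and Bbs4, with BAFs of 0.353 and 0.366, gave 0.50 and 0.45 beside 0.33 and 0.18. With lane and somite number alone removed, the intervals of both values overlapped for Rabl5, Ift27, Ift140, Ift57 and Bbs4. They did not for Kif3a and Bbs1. After all corrections, that of Rabl5 (-0.475 to -0.362) did not overlap the one from its BAF (-0.509 to -0.479), and the other genes stood as before.

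Bbs9, Cc2d2a, Kifap3 (the non-motor subunit of kinesin-2) and Wdr19 were among the genes with an F1 BAF away from 0.5 and no difference called between genotypes. For Bbs9 the BAF gives 0.40 (0.31 to 0.49) beside an observed 0.26 (0.06 to 0.45), on the same side of 0 (q = 0.0230 after all corrections). Cc2d2a, a transition zone protein, had a BAF of 0.593 ± 0.011 in F1, which gives -0.25 (-0.30 to -0.19), and was observed at -0.02 (-0.25 to 0.21). Kifap3 had 0.582 ± 0.013, which gives -0.22 (-0.28 to -0.15), and was observed at 0.00 (-0.17 to 0.17). Wdr19, with 0.409 in F1 but 0.489 in N2 embryos, gives 0.29 from the F1 value and was observed at -0.05 (-0.22 to 0.12). With lane and somite number alone removed, the intervals of both values overlap for Bbs9, Cc2d2a and Kifap3 and do not for Wdr19. After all corrections they overlap for none of these genes. The observed intervals were then 0.03 to 0.24 for Bbs9, -0.12 to 0.14 for Cc2d2a, -0.04 to 0.13 for Kifap3 and -0.14 to 0.09 for Wdr19. Ift74, Ift81, Cluap1, Bbs2, Bbs7, Kif3b and Mks1 also had no call and an interval from the BAF that left out 0. For each of them the intervals overlapped in both settings. The BAF of Ift81 gives -0.17 beside an observed -0.22. Bbs2, Kif3b and Mks1 were observed on the other side of 0, with lane and somite number alone removed. Over the 27 genes with both measures, the sign was the same in 20, and in 6 of the 7 that were called. All genes gave 5230 of 7282, and 2031 of the 2359 called. Spearman's correlation across genes was 0.655 for these 27 and 0.596 for all, where the points share embryos and genes are not independent replicates.

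**Figure D2:**
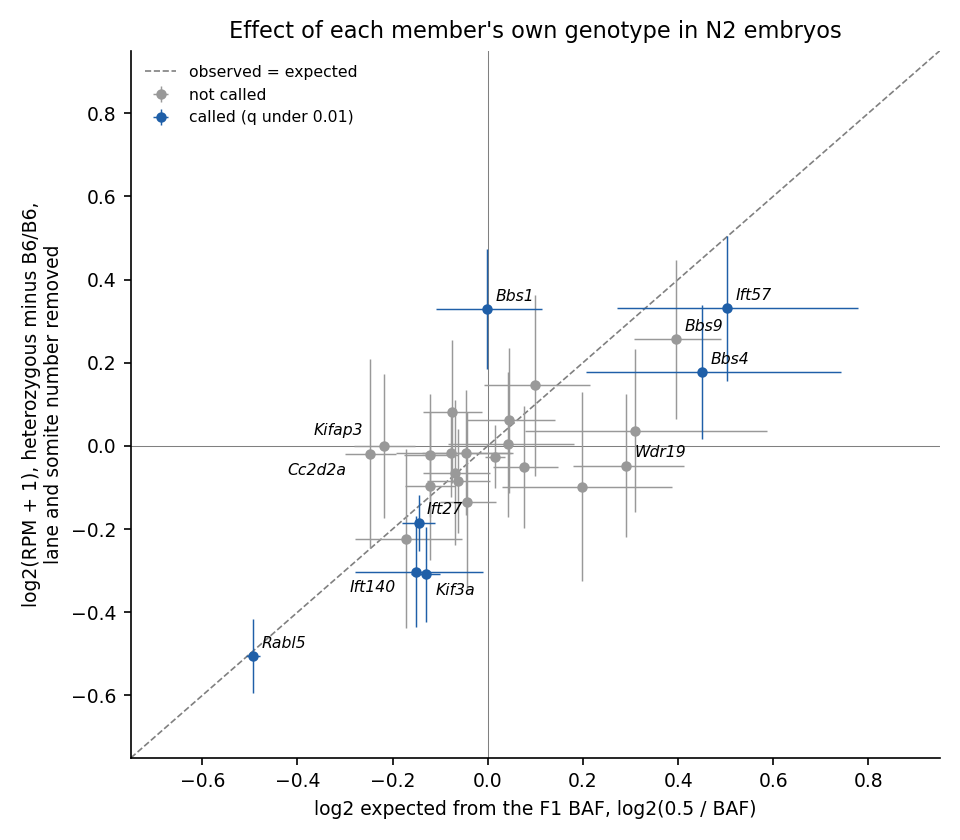
Log2 difference between heterozygous and B6/B6 N2 embryos with lane and somite number removed (vertical axis) against the log2 difference that follows from the BAF of F1 embryos (horizontal axis), for 27 genes with 95% intervals. Blue marks the genes called after all corrections. Rabl5 (-0.49, -0.51) and Ift27 (-0.15, -0.18) lie near the dashed line of equality, Bbs1 (-0.0019, 0.33) and Kif3a (-0.13, -0.31) lie off it, and Cc2d2a, Kifap3 and Wdr19 lie near 0 on the vertical axis.

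The genotype at Rabl5 and that at Ift27 were then set against the levels of all 9733 genes, since both encode subunits of a shared particle. At Rabl5, 80 genes (0.822%), Rabl5 itself included, passed at a q under 0.01, all on the chromosome of Rabl5, and 0 of the 29 other transport genes were among them. By unadjusted p, 3 of the 29 were under 0.05 (575 of all genes, 5.91%), the smallest for Ift81 (p = 0.0223, q = 0.653). Ift81 lies on the same chromosome as Rabl5, so its own genotype and that at Rabl5 are not independent. By its own genotype it differed by -0.20 (q = 0.0154, not called), beside -0.15 by that at Rabl5, and the part of each was not tested. At Ift27, 64 genes (0.658%), Ift27 itself included, passed, 63 of them on the same chromosome, and again 0 of 29. By unadjusted p, 1 was under 0.05 (635 of all genes, 6.52%), Ift57 (p = 0.0136, q = 0.513). The differences over the 29 ran from -0.15 to 0.12 on the log2 scale for Rabl5 and from -0.14 to 0.08 for Ift27. With no principal components removed, and with uncorrected RPM, the count also was 0 at both.

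The allele fraction was next set against somite number, which asks whether the alleles follow different time courses. With the minimum of 20 heterozygous embryos of 20 votes each, 7 of the 39 genes could be tested (Ift27, Ift46, Ift52, Ift172, Rabl5, Cluap1 and Kif3a). Ift27 was called (q under 0.1), against 0.299% of 3342 genes. Its BAF fell with somite number (Spearman's rho = -0.479, n = 69, q = 0.0173). The permutation p of rho was 6.00e-05, adjusted over Ift27 and Rabl5 alone. Permutations shuffled embryos freely across litters and lanes, so their p-values do not allow for what litter mates share. Litter means were not tested for the BAF. Pearson's r was -0.426 (permutation p = 2.80e-04, adjusted), and -0.427 without the 2 embryos of the most distant somite numbers. In the 9 embryos with at most 45 somites the BAF was 0.572 ± 0.032 (SD), from 0.524 to 0.611. In the 51 with 46 to 52 somites it was 0.548 ± 0.067, and in the 9 with at least 53 somites 0.484 ± 0.049, from 0.385 to 0.549. The youngest and the oldest embryos overlapped between 0.524 and 0.549. The B6 votes per 1000000 reads went from 61.5 ± 11.3 through 51.7 ± 14.1 to 44.9 ± 10.8, and the Cast votes from 45.8 ± 7.38 through 42.4 ± 11.7 to 48.3 ± 14.9.

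The relation of Ift27 kept its sign in every subset examined but was called in few. In embryos of B6 mothers rho was -0.531 (n = 42, q = 0.0309) and in those of F1 mothers -0.382 (n = 27, p = 0.0490, q = 0.505). It was -0.392 in flowcell 1 (n = 31) and -0.541 in flowcell 2 (n = 38). With lane regressed out of the ranks it was -0.301 (p = 0.0241, q = 0.652), and in the 61 embryos with at least 1000000 reads -0.390 (q = 0.232). The total level of Ift27 gave a rho of -0.016 with somite number (n = 147, q = 0.913). The BAF of Rabl5 had a rho of 0.065 (n = 71, q = 0.928).

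The F1 embryos, which the call did not use and which were examined after the N2 result was seen, gave the same sign. Over the 13 with a somite number, the BAF of Ift27 had a rho of -0.815 (permutation p = 0.00147, adjusted over 2 genes 0.00294) and a Pearson's r of -0.686 (permutation p = 0.0166, adjusted 0.0332), or -0.811 without the 2 most distant embryos. Within B6 × Cast rho was -0.655 (n = 7, exact permutation p = 0.125) and within Cast × B6 -0.841 (n = 6, exact permutation p = 0.0450). These embryos came from 4 litters, not all of whose members had a somite number, and the Cast × B6 litter counted at 41 to 43 somites, with 0.597 ± 0.023 (SD, n = 4), lay above the other 3, with means of 0.536, 0.543 and 0.538. Litter and stage cannot be told apart in this group. Rabl5 had a rho of 0.312 (permutation p = 0.296) over the same embryos and a Pearson's r of 0.551 (permutation p = 0.0475, adjusted 0.0475), which was 0.039 without the 2 most distant embryos and so rests on them.

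**Figure D3:**
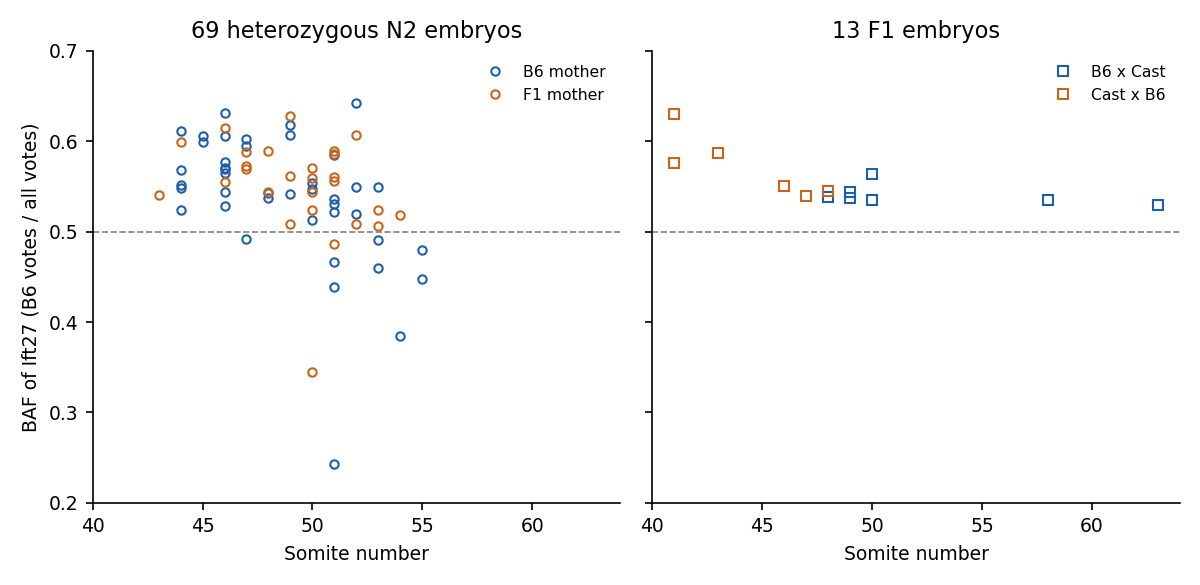
B6 allele fraction of Ift27 (vertical axis) against somite number (horizontal axis) in 69 heterozygous N2 embryos (left, blue for B6 and orange for F1 mothers) and 13 F1 embryos (right, blue for B6 × Cast and orange for Cast × B6). The cloud on the left slopes down, with a mean of 0.572 up to 45 somites and of 0.484 from 53 somites, and on the right the highest fractions belong to the litter of 41 to 43 somites.

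Total level was compared with somite number over the 147 N2 embryos with a count. Of 30 genes, 3 changed (Spearman's correlation, q under 0.05), all 3 falling, against 22% of 10007 genes. Kifap3 had the lowest rho (rho = -0.271, q = 0.00776). It had a median of 67.05 RPM in the 21 embryos with at most 45 somites (6.96 to 115) and of 28.99 RPM in the 14 with at least 53 (7.83 to 97.5). Cc2d2a (rho = -0.242, q = 0.0199) had medians of 13.8 and 6.70 RPM. Ift74, an IFT-B core subunit (rho = -0.234, q = 0.0255), had medians of 9.25 and 2.60 RPM, with single embryos up to 115 RPM among the younger and 89.7 among the older. The ranges of younger and older embryos overlapped for all 3. Permutation p-values of rho were adjusted over 6 genes, which were these 3, Ift140, Rabl5 and Ift27. They were 0.00600 for Kifap3 and 0.00880 for both others. The 3 genes had been picked by the same rho, and embryos were shuffled freely across lanes and litters. The permutation p-values, those of Pearson's r included, are therefore no separate support for the calls. Pearson's r was -0.291 for Kifap3 and -0.292 for Cc2d2a (adjusted permutation p = 0.00129 for each). For Ift74 it was -0.160 (adjusted permutation p = 0.0783). Without the 2 embryos most distant in somite number, r was -0.260, -0.278 and -0.104. Over the 30 genes Spearman's correlation had a median of -0.044, beside -0.024 over all genes, and ran from -0.271 to 0.208 (Ift140, q = 0.0521).

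None of the 3 was called once sequencing lane was regressed out of the ranks, where rho was -0.092 for Kifap3, -0.045 for Cc2d2a and -0.132 for Ift74. In that fit Ift140 was called instead (rho = 0.246, q = 0.0403). With litter means in place of embryos, 0 of 30 genes passed, and 0 had an unadjusted p under 0.05 (1138 of all genes). The values themselves were no smaller, with a rho of -0.337 for Kifap3, -0.346 for Cc2d2a and -0.321 for Ift74. Rabl5 and Ift27 had lane-regressed values of -0.170 (q = 0.211) and -0.164 (q = 0.234).

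The mothers gave opposite pictures before lane was considered. In embryos of B6 mothers 10 of the 30 genes changed with somite number, all 10 falling, against 51.6% of all genes (Bbs7, Ift122, Arl6, Kifap3, Cc2d2a, Dync2h1, Ift74, Wdr35, Ift52 and Kif3b). In those of F1 mothers 7 changed, 6 rising (Bbs7, Dync2h1, Cluap1, Ift52, Bbs9 and Wdr19) and Ift20 falling, against 23.1%. Both shares count changes in either direction, and how many of all genes fell or rose is not given here. The difference between both values of rho, tested by Fisher's z, had a q under 0.05 in 14 of 30 genes, against 37.6%. Bbs7, a BBSome subunit, had the widest gap, with -0.444 for B6 and 0.356 for F1 mothers (q = 7.20e-05), followed by the IFT-A subunit Ift122 with -0.435 and 0.278 (q = 4.11e-04) and Dync2h1 with -0.354 and 0.347 (q = 5.62e-04). Ift20, Kif3a and Mks1 differed the other way, with 0.102 and -0.390 for Ift20. With lane regressed out within each mother, 0 and 0 genes changed, while 1 and 0 had an unadjusted p under 0.05 (1833 and 1677 of all genes), and Bbs7 had 0.028 and 0.094.

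**Figure D4:**
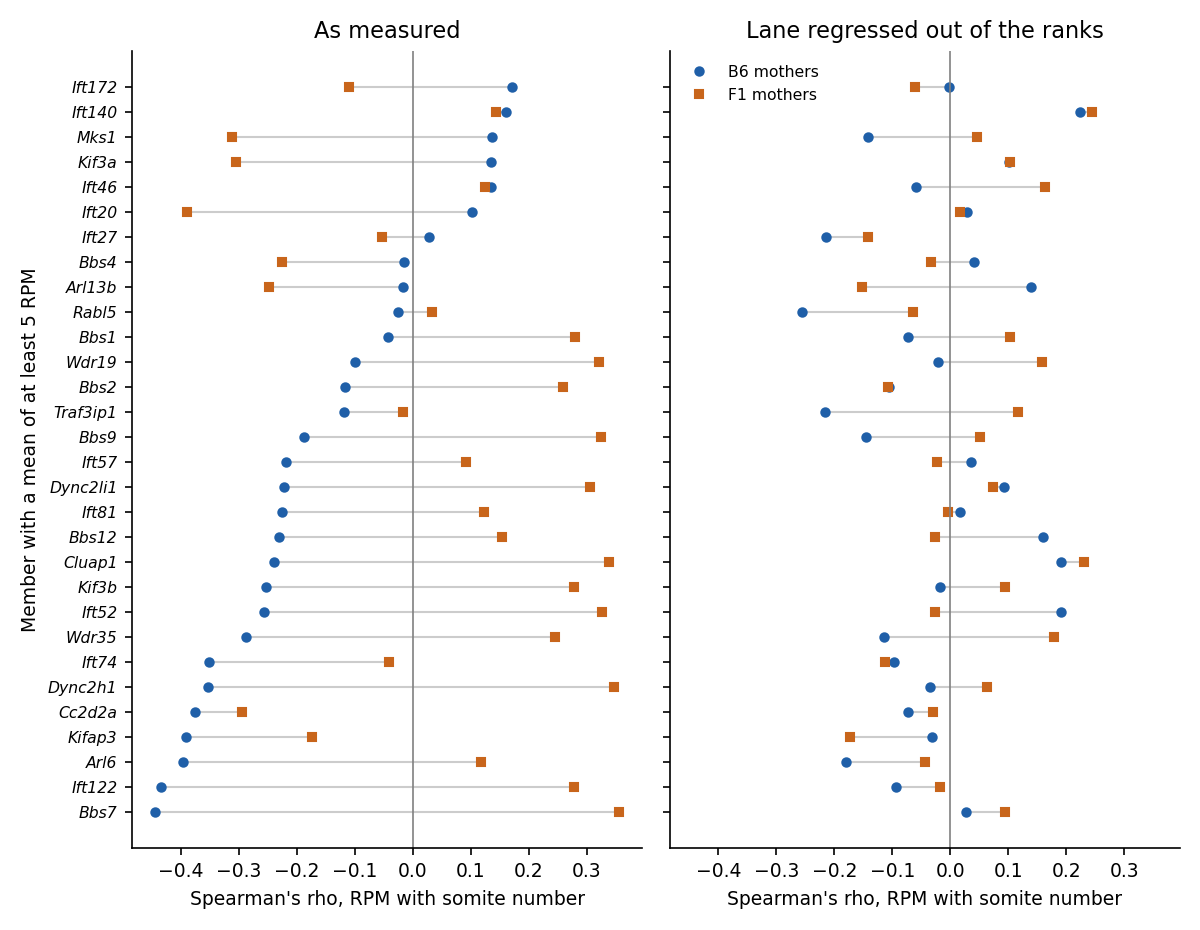
Spearman's rho of RPM with somite number (horizontal axis) for each of 30 genes, in embryos of B6 mothers (blue circles) and of F1 mothers (orange squares), as measured (left) and with lane regressed out of the ranks (right). On the left most circles lie below 0 and many squares above it (Bbs7 at -0.444 and 0.356), and on the right both lie between -0.256 and 0.245.

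Lane moved with these levels throughout. Between lanes lay a median of 55.7% of the rank variance of the 30 genes (18.0 to 82.6%), beside 59.4% for all genes. Lanes J to N of flowcell 2, with 36 embryos of B6 and 20 of F1 mothers, stood apart from the other 9 lanes with 98 embryos. The medians of these 5 lanes lay wholly above the others in 4 genes and wholly below in 7 of the 30 (36.7%, beside 33.3% of all genes). This split follows no label, since lanes H and I are also of flowcell 2. It was made after the levels were seen, so the counts are a description. Ift74 had lane medians of 34.2 to 73.8 RPM in lanes J to N and of 1.68 to 6.06 RPM elsewhere. Ift81, its partner in the tubulin-binding part of IFT-B, had 8.80 to 17.0 against 0.893 to 5.28 RPM, Arl6 3.44 to 16.0 against 0.186 to 1.48, and Dync2h1 7.98 to 23.4 against 3.69 to 7.62. Ift20 was lower there, with 264 to 375 against 495 to 681 RPM, and so was Ift172, a large IFT-B subunit, with 13.7 to 43.0 against 70.5 to 110. Mks1, Kif3a, Ift140, Ift27 and Traf3ip1 were the other 5 that were lower. Embryos of both mothers followed this pattern. What set these lanes apart is not given in the sources used here.

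**Figure D5:**
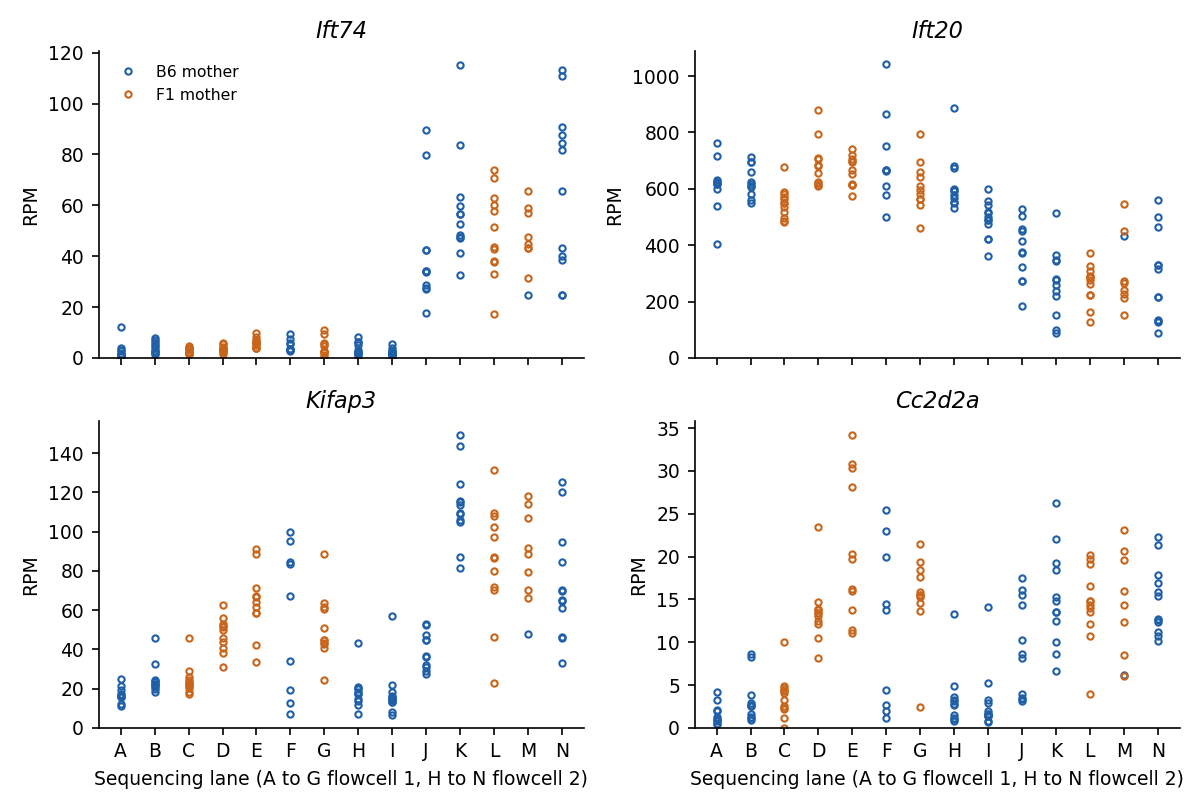
RPM (vertical axes) of Ift74, Ift20, Kifap3 and Cc2d2a in each N2 embryo by sequencing lane A to N (horizontal axes), blue for B6 and orange for F1 mothers. Ift74 is high and Ift20 low in lanes J to N for either mother, while Kifap3 and Cc2d2a vary between lanes of both flowcells.

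The mother's genotype was compared over the 89 and 65 embryos. By the Mann-Whitney test with a Bonferroni-adjusted p under 0.01, 0 of 30 genes differed, against 5.03% of 9733 genes. At an unadjusted p under 0.05 there were 8 (3917 of all genes). With Benjamini-Hochberg adjustment 8 genes had a q under 0.05 (31.6% of all genes), 3 higher with B6 (Rabl5, Ift46 and Ift27) and 5 higher with F1 mothers (Cc2d2a, Kifap3, Wdr35, Ift140 and Ift57). By edgeR's quasi-likelihood test and by DESeq2 5 were called each (25.4% and 27.9% of all genes). The 3 smallest p-values belonged to Cc2d2a, Kifap3 and Wdr35. Cc2d2a had 0.390 to 26.2 RPM with a median of 4.23 in embryos of B6 mothers and 0 to 34.2 with a median of 13.9 in those of F1 mothers. The means were 7.91 ± 7.12 and 13.7 ± 7.38 RPM, 1.73-fold higher with F1 mothers (adjusted p = 0.0291), and the groups overlapped. After TMM scaling the adjusted p was 0.00108, which passes. Within flowcells the log2 ratio of B6 to F1 mothers was -1.31 and -0.67.

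Kifap3 had 46.0 ± 37.6 and 59.01 ± 28.6 RPM (adjusted p = 1, edgeR q = 0.0277), with log2 ratios of -0.55 and -0.72 within flowcells. Wdr35 (Ift121), an IFT-A subunit, had 25.2 ± 8.15 and 29.1 ± 5.64 RPM (adjusted p = 1, edgeR q = 0.00739), with ratios of 0.03 and -0.32. Rabl5 was higher with B6 mothers, 90.8 ± 28.7 against 77.7 ± 22.6 RPM (log2 0.22, q = 0.0115, edgeR q = 0.0375), and Ift27 was 204 ± 60.2 against 185 ± 49.4 RPM (log2 0.14, q = 0.0465, edgeR q = 0.239). The ratio had the same sign in both flowcells in 12 of the 30 genes. With lane as a random block and with litter as a random block, 0 of 30 genes and 0 of all genes passed. With litter means 0 passed as well, but that count was fixed in advance. With 17 against 12 litters, even complete separation cannot reach the Bonferroni threshold over 9733 genes. By unadjusted p 5, 1 and 1 of the 30 were under 0.05 with lane block, litter block and litter means (1350, 902 and 1279 of all genes). For Cc2d2a the log2 ratio in these fits was -1.46, -0.98 and -0.66, and for Kifap3 -0.76, -0.36 and -0.15. Lanes and mothers are nearly nested, so the mother and the lane cannot be told apart.

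In the F1 embryos the reciprocal crosses were compared with edgeR's quasi-likelihood test on the counts. Of 38 genes tested, 8 differed at a q under 0.05, against 25.9% of 14625 genes. In 7 of them the level was lower in B6 × Cast than in Cast × B6. The lowest q belonged to Ift52, an IFT-B core subunit. It had 13.4 to 17.9 RPM with a median of 16.5 in B6 × Cast and 16.5 to 24.2 with a median of 20.2 in Cast × B6 (log2 -0.40 ± 0.084, SE from limma voom, q = 0.00408). Dync2li1, the dynein 2 light intermediate chain, had medians of 27.4 and 37.1 RPM (log2 -0.52 ± 0.14, q = 0.0101). Arl13b had medians of 16.2 and 23.4 RPM (log2 -0.45 ± 0.14, q = 0.0260). Bbs10, Bbs7 and Bbs1 were lower by -0.78, -0.32 and -0.34 on the log2 scale (edgeR q = 0.0229, 0.0358 and 0.0437). The minimum of 5 RPM did not apply to this test, and Bbs10 had a mean of 1.07 RPM, with 11 to 50 reads per F1 embryo. The crosses overlapped in every one of the 38 genes.

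Cep290, a transition zone organiser, went the other way (log2 1.13 ± 0.42, q = 0.0315), with 0.449 to 4.51 RPM in B6 × Cast and 0.464 to 1.70 in Cast × B6. Its B6 × Cast embryos differed by litter, with 3.54 ± 0.995 RPM (n = 3) at 58 to 63 somites and 1.69 ± 1.14 (n = 5) at 48 to 50. Tmem67, a transition zone membrane protein, had 0.0689 to 0.872 RPM in B6 × Cast and 0.287 to 4.89 in Cast × B6 (log2 -1.62 ± 0.54, q = 0.0470). A single Cast × B6 embryo held the 4.89 RPM, and without it Tmem67 (log2 -0.64, q = 0.209) and Bbs7 (q = 0.0518) were no longer called, leaving 6 genes. Rabl5 (log2 -0.23, q = 0.140) and Ift27 (-0.14, q = 0.390) did not pass. The 4 litters differed in stage, at 58 to 63 and 48 to 50 somites in B6 × Cast and 41 to 43 and 46 to 48 in Cast × B6. With the litters of 46 to 50 somites alone, 5 embryos against 4, 2 genes passed, Arl13b (log2 -0.59, q = 0.0365) and Ift81 (log2 -0.86, q = 0.0124), against 10.7% of all genes. The log2 ratios of the other 7 genes, none of which passed there, were -0.93 for Bbs10, -0.31 for Bbs7, -0.35 for Ift52, -0.40 for Dync2li1, -1.17 for Tmem67, 0.44 for Cep290 and -0.15 for Bbs1. One Cast × B6 litter, that of 46 to 48 somites, was read in both runs on a HiSeq, and the other 3 litters in 1 run on a GAIIx and 1 on a HiSeq. Cross, litter and stage cannot be told apart in the full set, and cross, litter and sequencing run in the subset.

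Other genes of the cilium and of the Hedgehog pathway were counted in the same fits, to be read against the shares of all genes given above (22% for somite number, 5.03% for the mother, 18.9% for unequal alleles, 29.3% for own genotype and 25.9% for the F1 cross). Of 38 further ciliary genes 36 were in the tables. With somite number 4 of 27 changed, all falling, among them Tctex1d2, Hspb11 and Mkks. Between mothers 2 of 27 differed by the Bonferroni threshold, both higher with F1 mothers, among them Tmem216 (log2 -0.82). Alleles were unequal in 3 of 26, and own genotype was called in 11 of 27, 7 higher and 4 lower in heterozygous embryos, B9d1 with the smallest p (log2 0.33, q = 5.94e-21). Between F1 crosses 5 of 35 passed, 4 of them lower in B6 × Cast. The medians over this list and over the transport genes, beside that over all genes, were as follows in the comparisons of somite number (-0.049 and -0.044 beside -0.024), mother (-0.01 and 0.02 beside 0.03 on the log2 scale) and own genotype (0.05 and -0.02 beside 0.00). In the F1 cross they were -0.21 and -0.16 beside -0.03. Of 14 Hedgehog genes, somite number was called in 2 of 7, the mother in 0 of 7 with 4 at an unadjusted p under 0.05, unequal alleles in 2 of 9, own genotype in 2 of 7 and the F1 cross in 5 of 14. With somite number the called genes Gli3 (rho = -0.267) and Smo (-0.258) fell. The median over the 7 tested was 0.085, beside -0.024 over all genes, and Gas1 (0.185) and Gli1 (0.163) had positive values without a call. Lane was not regressed out of the somite values of either list. By own genotype Gas1, a Hedgehog co-receptor, was higher (log2 1.48, q = 4.08e-21) and Gli1, a transcriptional target and effector of the pathway, lower in heterozygous embryos (log2 -0.15, q = 6.13e-04).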

How the data were processed

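3SEQ libraries of single E11.5 embryos were mapped by the authors with Bowtie2 to mm9 and to a Cast version of it, and reads with a second-best hit within 3 edits were discarded. The authors deposited raw read counts per RefSeq gene. They also deposited votes for each allele, here treated as estimated counts, in which each SNP of a read takes an equal part of 1 vote. The deposited genotype codes are a score of 1.0, 0.5 or 0.0 from a hidden Markov model, read here as B6/B6 (0.194% Cast votes), heterozygous (50.0%) and not called (0.524% of values).

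Counts were divided by library totals (RPM), and tests of level in N2 embryos used genes of at least 5 RPM. The test between F1 crosses used edgeR's own filter on low counts in place of this minimum. Depth was 245220 to 5370322 reads in N2 and 15703888 to 38234229 in F1 embryos. Tests across genes were fitted on whole tables in Python 3.11.15 (scipy 1.17.1) and R 4.3.3 (edgeR 4.0.16, limma 3.58.1, DESeq2 1.42.0), after tests on simulated data, with Benjamini-Hochberg adjustment (q) unless Bonferroni is named. Permutation tests were two-sided with 100000 resamples, or exact where so named. Principal components stood in for PEER factors, which could not be computed here. Groups, somite numbers, lanes and litters came from the labels, and 14 N2 columns were not used (8 without a cross in the labels, 6 without genotypes). Transport genes past the threshold of a main test are named, or the 3 with the smallest p where none passed, with Rabl5 and Ift27. Of the other lists counts are given and at most 4 genes by smallest p. Members, lists and tests were chosen with earlier results of these data known. Replicate samples are single embryos. Values of 1 listed gene and 1 promoter sequence are not reported here.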

Additional observations from a re-analysis of the deposited data

Results flagged for a closer look

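One F1 embryo of Cast × B6 had 4.89 RPM of Tmem67, against 0.287 to 1.48 RPM in the other 7 embryos of that cross. It was the only outlying value in 26 groups examined, which were the embryos of each F1 cross for the BAF or RPM of the genes called for unequal alleles or for the cross. Chance alone marks about 1 group in 20. The same embryo held 27.4 RPM of Ift74, against 1.54 to 7.41 RPM in the other 7. Ift74 was not called between crosses and was looked at after its values were seen. Its log2 ratio went from -0.76 (edgeR q = 0.271) to 0.15 (q = 0.743) without this embryo.

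The relation of level with somite number differed between embryos of B6 and of F1 mothers in 14 genes, by Fisher's z with Benjamini-Hochberg adjustment. Given as rho with B6 mothers minus rho with F1 mothers, the difference was negative in the IFT-B genes Ift52 (-0.584) and Cluap1 (-0.578), in the IFT-A genes Ift122 (-0.712), Wdr35 (-0.534) and Wdr19 (-0.420), in Bbs7 (-0.800), Bbs9 (-0.512) and Arl6 (-0.514) of the BBSome and its partners, and in the motor genes Dync2h1 (-0.701), Dync2li1 (-0.528) and Kif3b (-0.531). It was positive in Ift20 (0.492), Kif3a (0.440) and Mks1 (0.448). Lane and mother are nearly nested, and their parts cannot be told apart.

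The BAF of heterozygous N2 embryos minus that of F1 embryos was 0.0242 for Ift46, -0.0696 for Ift172, 0.0804 for Wdr19 and 0.0961 for Arl13b. These 4 differences passed a quasi-binomial test, and the part of read length in them was not tested.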

How the results depend on the processing

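With somite number 3 of 30 transport genes were called (2206 of all 10007 genes). The count was 1 with lane regressed out of the ranks (1151 of all genes), 0 with litter means (174), 10 and 7 within embryos of B6 and of F1 mothers (5161 and 2316), 0 and 0 within them with lane regressed out (704 and 273), 9 in flowcell 2 (3920) and 5 in embryos of at least 1000000 reads (2734), so that the counts over all genes moved as well. Between mothers 0 were called (490 of all 9733), and 1 after TMM scaling (489), 8 by Benjamini-Hochberg q (3073), 5 by edgeR (2472), 5 by DESeq2 (2716) and 1, Bbs9, in flowcell 1 (212). Unequal alleles were called in 5 genes, and in 8 by Benjamini-Hochberg q under 0.01 (1714 and 2889 of all genes). The 1 call of BAF with somite number went to 0 with lane regressed out, to 0 in embryos of F1 mothers and to 0 in embryos of at least 1000000 reads. The 8 calls between F1 crosses became 4 with no filter on low counts, 2 with 1 litter of each cross and 6 without Cast × B6 replicate 1 (3788, 3612, 1549 and 3415 of all genes). The causes were not tested, other than that some of these settings use fewer embryos. The counts for own genotype (6 to 10 beside 8), parent of origin and the Rabl5 and Ift27 genotypes stayed within 1.5 times under the alternatives run. Of 144 alternatives for single named genes, 102 kept the call, 42 lost it and 0 changed sign. The settings by flowcell, by depth, by lane within mothers and without replicate 1, the tests of a difference between mothers and between generations, and the test of the Ift27 BAF in F1 embryos were chosen after seeing the data. So was the split of lanes J to N from the other lanes. No paired analysis was possible because the replicate numbers only follow accession order and name no shared litter or animal across groups. Depth limits the genes near 5 RPM, which have about 11.5 reads in the median N2 embryo.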
